A study of Mus musculus with 8 samples.

Results

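The genes of the proteasome were followed in the livers of mice on the MCD diet, with a hepatocyte-specific knockout of Nnmt and without it. They were taken as the genes of the count table whose symbol runs from Psma to Psmg followed by a number, without pseudogenes, and whose mean expression over the 8 libraries was at least 1 CPM (counts scaled to the library total). Of 33212 genes in the table, 50 carried such a name and 46 passed the limit, and all 46 were among the 15291 genes with enough counts to be tested. The 46 genes comprised 7 alpha and 7 beta subunits of the core particle, 3 immunoproteasome subunits, 6 ATPases and 11 other subunits of the regulatory particle, 7 assembly chaperones, and 5 genes of activators and an inhibitor. The 4 genes under the limit were Psmb11, the thymus-specific beta subunit, at 0.00165 CPM, Psme2b at 0.314 CPM, Psmc3ip, which carries the name but encodes a recombination protein, at 0.626 CPM, and Psma8, a testis-specific alpha subunit, at 0.824 CPM. At the limit, Psma8 lay just outside, and the lowest of the 46 genes, Psmd10, lay at 8.76 CPM.

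The MCD diet lacks methionine and choline and injures the liver. All mice were male, on the C57BL/6 strain, and had been on this diet for 8 weeks, and their age is not given in the sources used here. The 4 Nnmt KO mice carried Alb-Cre and Nnmt flox/flox, which the study describes as a hepatocyte-specific knockout. Nnmt encodes nicotinamide N-methyltransferase. The 4 control mice are given as Nnmt flox/flox in the study's methods and as WT in the sample labels, and no group with Cre alone and no group on another diet was part of this comparison.

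The proteasome degrades proteins that have been tagged with ubiquitin. Its core particle is a barrel of alpha and beta rings with the proteolytic sites inside, and a regulatory particle at its end binds, unfolds and feeds in the tagged protein. In cells exposed to interferon gamma and in immune cells, the 3 catalytic beta subunits are exchanged for the immunoproteasome subunits, which changes the peptides available for antigen presentation. When the proteasome is inhibited, the transcription factor NRF1, the product of Nfe2l1, raises the transcription of its subunit genes together through antioxidant response elements.

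Promoter sequences are shown for the genes with a match to the core of such an element, since NRF1 acts through these elements. RefSeq's promoter sequences on GRCm38.p6, which run from upstream of each start site to just past it, were searched on both strands for TGACNNNGC, the core of the element. It was present in 6 of the 42 promoters found for 39 of the 46 genes (14.3%) and in 12.4% of all 32851 promoters of the same length. In the following sequences, each written 5′ to 3′ on the strand of its gene, the capitals mark the match.
Psmb5, chr14:54618024-54618052, minus strand: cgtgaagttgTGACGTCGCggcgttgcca
Psmb6, chr11:70525338-70525366, plus strand: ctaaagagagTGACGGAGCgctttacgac
Psmd9, chr5:123228149-123228177, plus strand: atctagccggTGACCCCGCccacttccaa
Psme4, chr11:30771758-30771786, plus strand: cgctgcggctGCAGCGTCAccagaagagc
Psmc6, chr14:45329587-45329615, plus strand: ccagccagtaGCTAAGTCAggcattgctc
Psmd12, chr11:107479278-107479299, plus strand: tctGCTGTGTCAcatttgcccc
In Psmb5, Psmb6 and Psmd9 the match reads on the strand of the gene, and in Psme4, Psmc6 and Psmd12 on the opposite strand. The first capital stands at -47, -9, -31, -7, -227 and -247 relative to the RefSeq start site in the order shown.

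The CCAAT box was present in 13 of the 42 promoters (31.0%) and in 37.4% of all promoters. The core of the interferon-stimulated response element, a pair of GAAA repeats with any 2 bases between them, was present in 5 of the 42 (11.9%), those of Psmb3, Psmd4, Psmd9, Psme1 and Psmg4, and in 3.44% of all promoters. No match of one motif overlapped a match of another in these promoters. The sequence upstream of Psma1, one of the genes that were lower in Nnmt KO mice by the unadjusted test, is shown for its CCAAT boxes, 1 on each strand and both in capitals.
Psma1, chr7:114276121-114276366, minus strand: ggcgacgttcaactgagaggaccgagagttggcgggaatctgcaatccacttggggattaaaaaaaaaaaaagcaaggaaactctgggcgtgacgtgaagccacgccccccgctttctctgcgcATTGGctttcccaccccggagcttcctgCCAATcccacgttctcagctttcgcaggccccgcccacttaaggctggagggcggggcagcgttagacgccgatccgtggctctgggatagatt
These matches describe the sequence and do not show binding.

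Total counts per library were between 75020072 and 87934362, and the counts of the 46 genes ran from 618 for Psmd10 to 25231 for Psmd8, so that counting error was small for all of them. The library of Nnmt KO mouse a stood apart, with a TMM scaling factor of 1.21, where the other Nnmt KO libraries had factors of 0.952 to 0.977. As the columns of the table name the genotype but no mouse, letters a to d are used for the libraries of a genotype. The targeted gene, Nnmt, was at 31.8, 44.8, 68.9 and 83.0 CPM in Nnmt KO libraries a to d and at 112, 224, 134 and 84.9 CPM in control libraries a to d. Every Nnmt KO library was below every control library (p = 0.0286 in a two-sided exact permutation test, which cannot go lower with 4 against 4), and KO library d and control library d met closely. The mean in Nnmt KO mice was 41.2% of that in control mice (log2 fold change -1.28, edgeR adjusted p = 0.123). Nnmt RNA was thus lower in these livers but not absent. As this is whole liver, fewer cells of a type and less RNA per cell cannot be told apart in any of the values that follow.

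In Nnmt KO mice, proteasome gene expression was close to that of control mice. In edgeR's quasi-likelihood test, 0 of the 46 genes and 0.32% of all tested genes passed the adjusted p of 0.05. DESeq2's Wald test called 1, Psmd13, where it called 3.46% of all genes. At an unadjusted p under 0.05, 4 of the 46 genes (8.70%) passed edgeR's test, against 12.6% of all genes. Of these, Psmd13, Psma1 and Psmg2 were lower in Nnmt KO mice (7.13% of all genes were lower at this p) and Psme4 was higher (5.45% of all genes). The libraries of the genotypes did not overlap for 1 of the 46 genes (8.16% of all genes), which was Psmd13 and lower (4.81%), and for 0 genes that were higher (3.34%).

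The sizes were small throughout. The 95% interval of the fold change lay within 1.5-fold either way for 43 of the 46 genes, for 74.3% of the tested genes in the same range of mean expression and for 46.2% of all tested genes. The exceptions were Psmd13, whose interval ran from -0.73 to -0.19 on the log2 scale, Psmc6 (-0.39 to 0.66) and Psme4 (0.03 to 0.61). The log2 fold changes of the 46 genes ran from -0.46 to 0.32, with a median of -0.08. The median was 0.02 over all tested genes and -0.03 over the 7582 tested genes within the range of mean expression of these 46.

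More of the genes lay below 0 than above it. A log2 fold change under 0 was found for 35 of the 46 genes (76.1%), for 47.7% of all tested genes and for 56.3% of those in the same range of expression. This count depended on the scaling, as 26 of the 46 were under 0 when the counts were scaled by library size only. The distance between the median of the 46 genes and that of all genes was -0.10 with either scaling. Without Nnmt KO library a it was -0.04, and without control library d -0.16.

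**Figure D1:**
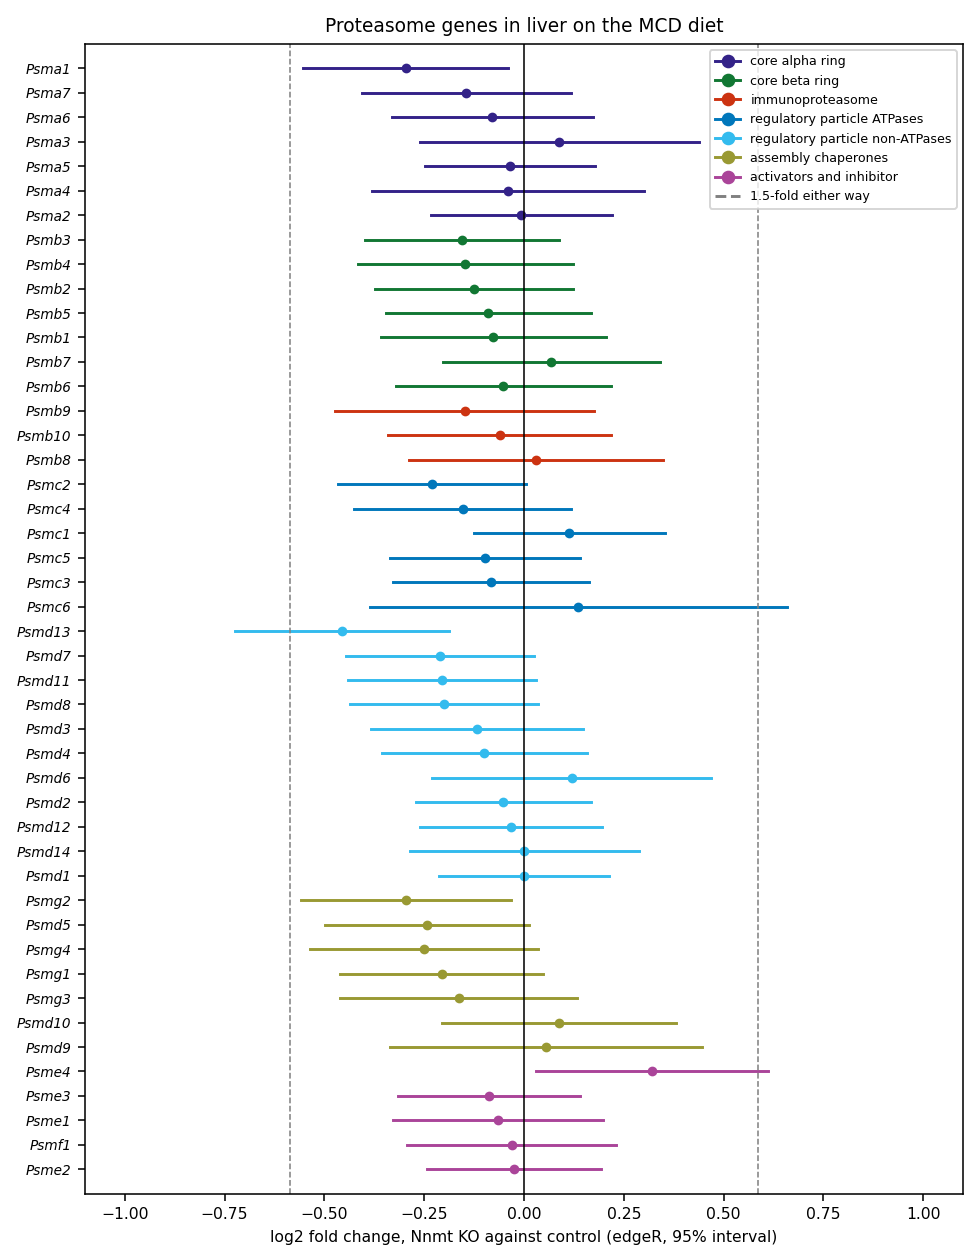
Fold changes of the 46 proteasome genes between Nnmt KO and control mice, on the log2 scale, from edgeR's fit. Points are estimates, lines are 95% intervals, colours are classes and the dashed lines mark 1.5-fold either way; 35 points lie left of 0, and only the intervals of Psmd13, Psmc6 and Psme4 cross a dashed line.

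In the core particle, 0 of the 14 subunit genes passed the adjusted test, and 1, Psma1, passed the unadjusted one. The alpha subunits form the outer rings and the gate, and 6 of 7 were under 0, with a median log2 fold change of -0.04. Per kilobase of exon, they ran from 17.1 CPM for Psma3 to 87.6 CPM for Psma6. The beta subunits, which include the proteolytic sites, ran from 27.8 CPM per kilobase for Psmb1 to 176 CPM per kilobase for Psmb5, and 6 of 7 were under 0, with a median log2 fold change of -0.09. These levels rest on all annotated exons of a gene, and the order changes with the transcript chosen, as the span of the beta subunits was 6.34-fold by all exons and 3.03-fold by the longest coding transcript.

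Psma1, an alpha subunit gene on the minus strand of chromosome 7 (GENCODE's GRCm38 annotation, 114264606 to 114276118), was the alpha subunit with the largest difference. It was at 70.5, 68.4, 71.2 and 66.5 CPM in control libraries a to d and at 48.1, 54.2, 54.4 and 68.5 CPM in Nnmt KO libraries a to d. Nnmt KO libraries a to c were below all control libraries, and library d lay among them. The log2 fold change was -0.30 (SE 0.12, edgeR unadjusted p = 0.0278, adjusted p = 0.321). It ranged from -0.40 to -0.23 with each library left out, and the unadjusted p was above 0.05 without Nnmt KO library a, b or c or control library a or c, and at 0.0511 when scaled by library size only. Psmb3, a non-catalytic beta subunit, showed the largest difference in its class, at 132, 126, 121 and 105 CPM in control libraries a to d and 96.1, 110.1, 113 and 115 CPM in Nnmt KO libraries a to d. The groups overlapped, with a log2 fold change of -0.16 (SE 0.11, edgeR adjusted p = 0.599).

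The 3 catalytic subunits of the constitutive proteasome did not separate the genotypes. Psmb5, which carries the chymotrypsin-like site, was at 178, 159, 171 and 144 CPM in control libraries a to d and at 134, 149.8, 158 and 171 CPM in Nnmt KO libraries a to d. Psmb6, which carries the caspase-like site, was at 171, 176, 162 and 134 CPM in control libraries and at 135, 152, 163 and 169.9 CPM in Nnmt KO libraries, in the same order. Both genes overlapped between genotypes, with library a the lowest and library d the highest of the Nnmt KO group. Psmb7, which carries the trypsin-like site, was at 101, 104, 103 and 93.9 CPM in control libraries and at 88.4, 98.9, 105 and 128 CPM in Nnmt KO libraries, which held both the lowest and the highest value. The log2 fold changes were -0.09 (95% interval -0.35 to 0.17) for Psmb5, -0.05 (-0.32 to 0.22) for Psmb6 and 0.07 (-0.20 to 0.34) for Psmb7.

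The immunoproteasome subunits were expressed at a lower level and did not differ between genotypes beyond the spread of the mice. Psmb8, which replaces Psmb5, was at 23.1, 25.8, 22.8 and 21.8 CPM in control libraries a to d and at 31.7, 22.2, 21.3 and 20.4 CPM in Nnmt KO libraries a to d. Psmb9, which replaces Psmb6, was at 17.2, 17.7, 13.1 and 13.3 CPM in control libraries and at 16.4, 14.2, 12.6 and 12.1 CPM in Nnmt KO libraries. Psmb10, which replaces Psmb7, was at 35.1, 36.4, 31.4 and 27.8 CPM in control libraries and at 36.5, 30.9, 31.5 and 26.3 CPM in Nnmt KO libraries. For all 3 genes Nnmt KO library a was the highest and library d the lowest of the Nnmt KO group, the reverse of their order for the constitutive subunits. The log2 fold changes were 0.03 (95% interval -0.29 to 0.35) for Psmb8, -0.15 (-0.47 to 0.17) for Psmb9 and -0.06 (-0.34 to 0.22) for Psmb10. On the opposite strand, Psmb9 shares 212 exon bases with Tap1, Psmb8 shares 498 with Gm20496 and Psmb7 shares 405 with Nek6. The reads of the genes could not be told apart there if the counting did not use strand. Psmb5 shares 109 exon bases with Mir686 on its own strand.

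The ratio of an immunoproteasome subunit to the constitutive subunit that it replaces does not depend on the scaling of a library. On the log2 scale of reads per kilobase, the ratio of Psmb8 to Psmb5 was -4.86, -4.54, -4.82 and -4.63 in control libraries a to d and -4.00, -4.67, -4.80 and -4.98 in Nnmt KO libraries a to d. The ratio of Psmb9 to Psmb6 was -4.28, -4.29, -4.60 and -4.30 in control libraries and -4.01, -4.39, -4.67 and -4.78 in Nnmt KO libraries. The ratio of Psmb10 to Psmb7 was -0.52, -0.51, -0.71 and -0.75 in control libraries and -0.27, -0.67, -0.73 and -1.28 in Nnmt KO libraries. In all 3 pairs the groups overlapped, Nnmt KO library a was the highest of the 8 libraries and Nnmt KO library d the lowest.

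The means of the genotypes were close beside this spread. The mean log2 ratio differed between Nnmt KO and control mice by 0.10 for Psmb8 to Psmb5, -0.10 for Psmb9 to Psmb6 and -0.12 for Psmb10 to Psmb7, where the SD over the 4 Nnmt KO mice was 0.43, 0.34 and 0.42 and that over the 4 control mice 0.15, 0.15 and 0.13. The sign of each difference rested on 1 library, as Psmb8 to Psmb5 was -0.11 without Nnmt KO library a, and Psmb9 to Psmb6 and Psmb10 to Psmb7 were 0.0099 and 0.061 without Nnmt KO library d. With each library left out, the 3 differences ranged from -0.11 to 0.22, from -0.25 to 0.0099 and from -0.28 to 0.061. In control mice the immunoproteasome subunit stood at 3.82%, 4.85% and 65.0% of its partner per kilobase of exon. With the longest coding transcript as the length, these shares were 7.92%, 5.60% and 28.7%, while the differences between genotypes do not change with the length used.

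**Figure D2:**
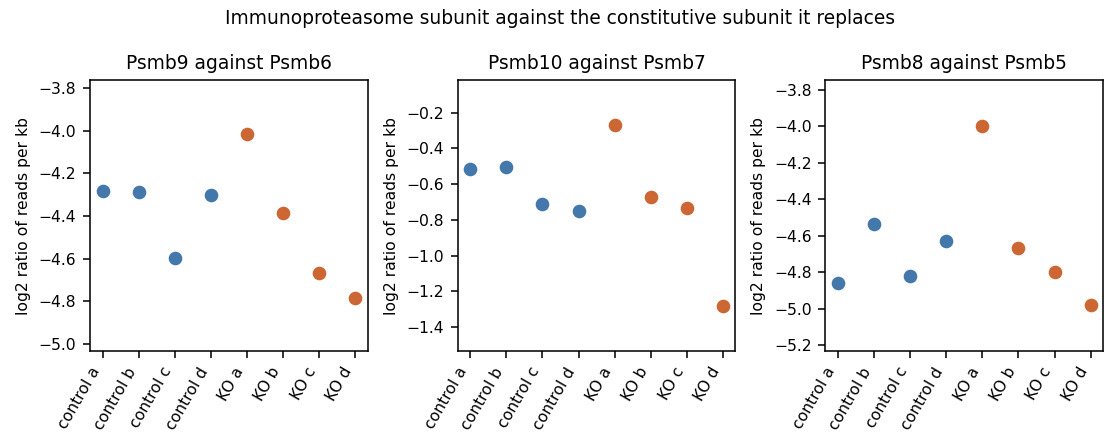
Log2 ratio of reads per kilobase of each immunoproteasome subunit to its constitutive partner, 1 point per library. In each panel the 4 control libraries (blue) lie between the highest point, Nnmt KO library a, and the lowest, Nnmt KO library d (orange).

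Markers of immune cells followed the order of the immunoproteasome subunits across the Nnmt KO libraries in part. The summed level of 10 leukocyte markers was 222, 130, 116 and 99.1 CPM in Nnmt KO libraries a to d. In control libraries a to d it was 100.5, 106, 129 and 183 CPM. By this sum library a was the highest and library d the lowest of the Nnmt KO group, as for Psmb8, Psmb9 and Psmb10, but gene by gene 6 of the 10 markers were highest in library a and 4 were lowest in library d, where 2 of the markers were highest. In the control group library d had the highest sum of these markers and the lowest Psmb8 and Psmb10. The 8 macrophage and Kupffer cell markers summed to 559 to 1013 CPM in Nnmt KO and 418 to 937 CPM in control libraries, with the maximum in Nnmt KO library a and the minimum of the Nnmt KO group in library c. Of these 8, 4 were highest of the Nnmt KO group in library a and the other 4, the Kupffer cell genes Clec4f, Vsig4, Timd4 and Marco, in library d. By genotype, 8 of the 10 leukocyte markers and 7 of the 8 macrophage markers had a log2 fold change above 0. Of them, 1 (Cd8a, log2 fold change 1.44, edgeR unadjusted p = 0.00143, also past DESeq2's adjusted test) and 0 had an unadjusted p under 0.05, where 5.45% of all genes were higher at this p. Cd8a was at a low level, 0.24 to 0.41 CPM in control and 0.72 to 1.21 CPM in Nnmt KO libraries. Cd3e, also a T cell marker, had a log2 fold change of 0.08 (edgeR unadjusted p = 0.877). The part of these cells in the immunoproteasome values was not tested.

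The other genes of antigen presentation and the interferon-stimulated genes were compared in the same libraries. Of 16 genes of antigen presentation, 9 were lower and 7 higher in Nnmt KO mice, and by edgeR's test 0 had an unadjusted p under 0.05, while DESeq2 called 0 at an adjusted p of 0.05, beside 12.6% of all genes at the unadjusted p. Tap1, which carries peptides made by the proteasome into the endoplasmic reticulum, was at 27.3, 17.3, 14.8 and 11.3 CPM in Nnmt KO libraries a to d and at 22.1, 19.7, 17.4 and 18.5 CPM in control libraries a to d. Its order within the Nnmt KO group was that of Psmb8 and Psmb9, and its log2 fold change was -0.14 (SE 0.23, edgeR unadjusted p = 0.56). Of 11 interferon-stimulated genes, 8 were higher in Nnmt KO mice, and 1, Gbp2, was so at an unadjusted p under 0.05 (log2 fold change 0.43, edgeR unadjusted p = 0.0262). This is a share of 9.09%, where 12.6% of all genes passed in either direction and 5.45% were higher. Within the Nnmt KO group, 10 of these 11 genes were highest in library a, 5 were lowest in library d and 1 was highest there. Of the 16 genes of antigen presentation, 10 were highest in library a, 10 were lowest in library d and 3 were highest there. The part of interferon signalling in the immunoproteasome values was not tested.

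In the regulatory particle, the largest difference was that of Psmd13. The 6 ATPases, which unfold the substrate, had a median log2 fold change of -0.09, and 4 were under 0. Their level per kilobase ran from 8.48 CPM for Psmc6 to 72.2 CPM for Psmc5. The 11 other subunits, which form the lid and part of the base and include the ubiquitin receptor Psmd4 and the deubiquitinase Psmd14, had a median of -0.10, and 8 were under 0. Their level per kilobase ran from 12.6 CPM for Psmd14 to 85.3 CPM for Psmd8.

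Psmd13, a scaffold subunit of the lid, lies on the plus strand of chromosome 7 from 140881968 to 140898643. It was at 108, 107, 96.3 and 83.3 CPM in control libraries a to d and at 60.7, 75.6, 78.0 and 73.0 CPM in Nnmt KO libraries a to d. Every Nnmt KO library was below every control library. The mean was 98.6 ± 11.5 CPM (SD, n = 4) in control mice and 71.8 ± 7.68 CPM (SD, n = 4) in Nnmt KO mice. The log2 fold change was -0.46 (SE 0.12, edgeR unadjusted p = 0.00318, adjusted p = 0.136). With DESeq2's Wald test the log2 fold change was -0.45 and the adjusted p was 0.0275. With each library left out in turn, the log2 fold change stayed between -0.53 and -0.38. Psmd13 shares 342 exon bases with Sirt3 on the opposite strand, and Sirt3 was at 28.2 to 54.6 CPM in Nnmt KO and 43.8 to 62.7 CPM in control libraries (log2 fold change -0.26, edgeR unadjusted p = 0.213).

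Psmd13 and Psma1 were 2 of the 4 proteasome genes on chromosome 7, and their neighbours were lower too. Within 5 Mb of Psmd13, the median log2 fold change of 102 other tested genes was -0.32, and 37 of them (36.3%) were lower than Psmd13. Among the 58 of these with a mean of at least 10 CPM, the median was -0.43. Within 5 Mb of Psma1, the median of 56 tested genes was -0.16, and 19 of them (33.9%) were lower than Psma1, while the 31 with at least 10 CPM had a median of -0.28. Both genes lay near the median of their expressed neighbours. The other pair, the ATPase gene Psmc4 and the lid subunit gene Psmd8, lies between 28.0 and 29.2 Mb, and had log2 fold changes of -0.15 and -0.20. The median of the neighbours there was -0.05, and -0.13 and -0.14 for those with at least 10 CPM. Leaving out the 4 genes of chromosome 7 was tried after the data were seen. Of the other 42 genes, 1 was lower and 1 was higher at an unadjusted p under 0.05 (7.13% and 5.45% of all genes), and their median was -0.07. The part of chromosome 7 in these values was not tested further.

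Psmc2, the ATPase subunit with the largest difference, was at 118, 119, 114 and 107 CPM in control libraries a to d and at 85.8, 97.0, 96.3 and 111 CPM in Nnmt KO libraries a to d. Nnmt KO libraries a to c were below all control libraries, and library d was above control library d. The log2 fold change was -0.23 (SE 0.11, edgeR unadjusted p = 0.054, adjusted p = 0.406). The widest spread of all 46 genes was that of Psmc6, another ATPase subunit, which differed 2.18-fold between its lowest library, control b, and its highest, Nnmt KO d.

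The assembly chaperones had the lowest median of the classes, a log2 fold change of -0.21, with 5 of 7 under 0. They build the particles and are not part of the finished proteasome, and they were among the least abundant, from 4.41 CPM per kilobase for Psmg3 to 20.6 CPM per kilobase for Psmg4. Psmg2, which pairs with Psmg1 to order the alpha ring, was at 20.4, 16.1, 18.2 and 19.3 CPM in control libraries a to d and at 13.8, 14.1, 15.03 and 17.4 CPM in Nnmt KO libraries a to d. Nnmt KO libraries a to c were below all control libraries, and library d was above control library b. The log2 fold change was -0.30 (SE 0.12, edgeR unadjusted p = 0.0312, adjusted p = 0.333). It ranged from -0.37 to -0.23 with each library left out, and the unadjusted p was above 0.05 without Nnmt KO library a, b or c or control library a or d, and at 0.124 when scaled by library size only. The other chaperones of the alpha ring, Psmg1, Psmg3 and Psmg4, had log2 fold changes of -0.21, -0.16 and -0.25, and the chaperones of the regulatory particle were at -0.24 for Psmd5, 0.05 for Psmd9 and 0.09 for Psmd10, each with an unadjusted p above 0.05.

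Of the activators, Psme4 was the only gene of the 46 that was higher at an unadjusted p under 0.05. It encodes a large single-chain cap of the core particle that acts without ATP or ubiquitin and has been linked to the turnover of acetylated histones, and it lies on the plus strand of chromosome 11 from 30771726 to 30880361. It was at 46.1, 43.8, 55.7 and 50.9 CPM in control libraries a to d and at 51.9, 56.1, 62.3 and 75.1 CPM in Nnmt KO libraries a to d. Control library c was above Nnmt KO library a, so that the groups overlapped. The log2 fold change was 0.32 (SE 0.13, edgeR unadjusted p = 0.0334, adjusted p = 0.34). Without Nnmt KO library d it was 0.21 (edgeR unadjusted p = 0.109), and the unadjusted p was also above 0.05 without Nnmt KO library c, control library a or control library b. Psme1 and Psme2, which form the interferon-inducible cap, had log2 fold changes of -0.07 and -0.02. Psme3, the nuclear cap, was at -0.09 and the inhibitor Psmf1 at -0.03. Per kilobase, the class ran from 6.59 CPM for Psme4 to 44.7 CPM for Psme1.

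**Figure D3:**
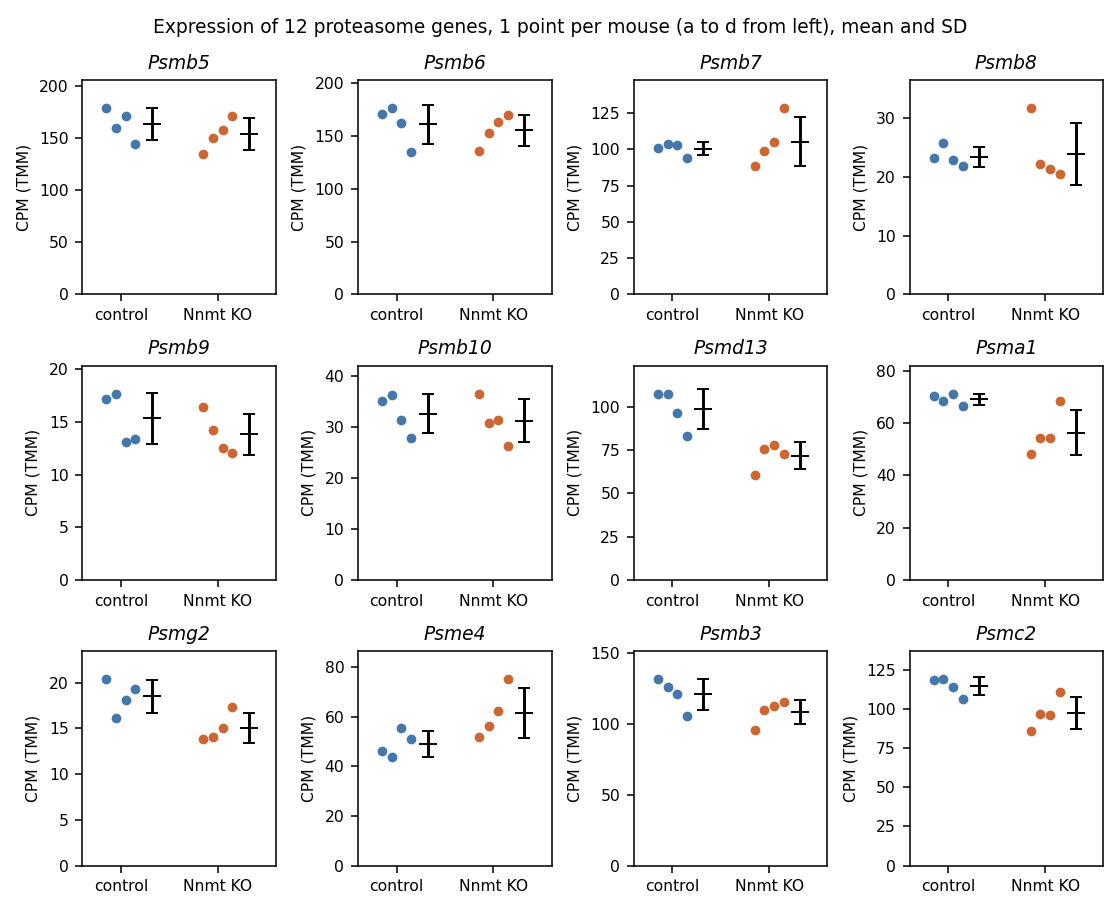
TMM-scaled CPM of 12 proteasome genes in each library, points in the order a to d from left within a genotype, with the mean and SD beside them. The genotypes separate only for Psmd13, and for Psmb8 Nnmt KO library a stands above the other 7 libraries.

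The genes that supply, control or assist the proteasome were compared in the same way. Of 39 tested genes for other particle parts, NRF1 and NRF2 control, associated deubiquitinases and ligases, ubiquitin shuttles, and ubiquitin itself, 21 were lower and 18 higher in Nnmt KO mice, with a median log2 fold change of -0.00. After adjustment 0 of them were under a p of 0.05 in edgeR's fit and 0 in DESeq2's, and 4 had an unadjusted p under 0.05 (10.3%, against the 12.6% of all genes). These were Keap1, the repressor of NRF2, at -0.25, and Mafg, a partner of NRF1 and NRF2, at -0.31, and, in the other direction, the proteasome adaptor Ecpas at 0.25 and the ubiquitin ligase Ube3a at 0.47.

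The transcription factor genes Nfe2l1 and Nfe2l2 differed by less than their error. Nfe2l1 was at 187, 221, 209 and 198 CPM in Nnmt KO libraries a to d and at 218, 208, 195 and 213 CPM in control libraries a to d, a log2 fold change of -0.03 (SE 0.10). The log2 fold change of Nfe2l2, which encodes NRF2, was -0.01 (SE 0.11). Pomp, the maturation factor of the core particle, and Sem1 and Adrm1, subunits of the regulatory particle with other names, had log2 fold changes of 0.08, 0.11 and -0.14. Ubb, a polyubiquitin gene induced by stress, had a log2 fold change of -0.36 (SE 0.21) and overlapped between genotypes.

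The spread between mice was carried by single libraries. Nnmt KO library a held the lowest value of the 8 for 28 of the 46 genes, and control libraries a and b and Nnmt KO library d held the highest for 13, 12 and 12 genes. Relative to each gene's mean over the 8 libraries, the mean log2 deviation of the 46 genes was -0.16, -0.06, -0.03 and 0.09 for Nnmt KO mice a to d and 0.11, 0.08, 0.02 and -0.05 for control mice a to d. The low place of Nnmt KO library a rested on its scaling factor, as it held 0 of the lowest and 13 of the highest values when counts were scaled by library size only. The summed level of the 46 genes was 4315 ± 258 CPM (SD, n = 4) in control mice and 4053 ± 299 CPM (SD, n = 4) in Nnmt KO mice, with ranges of 3991 to 4523 and 3657 to 4371 CPM that overlapped.

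The classes did not deviate alike in these libraries. In Nnmt KO library a, the alpha subunits were at -0.23, the beta subunits at -0.24 and the ATPases at -0.24, and the immunoproteasome subunits at 0.27. In Nnmt KO library d, the same classes were at 0.22, 0.12, 0.18 and -0.24. Nnmt KO library a also had the lowest sum of 8 hepatocyte markers, 67670 CPM, against 106604 to 120411 CPM in the other Nnmt KO libraries and 84006 to 128572 CPM in control libraries, and the highest sums of the leukocyte, macrophage, stellate cell and cholangiocyte markers. Of these lists, 6 of 6 stellate cell and 5 of 5 cholangiocyte markers had a log2 fold change above 0, with 3 and 1 at an unadjusted p under 0.05. Under 0 were 4 of 8 hepatocyte and 4 of 6 endothelial markers, with 1 (Cyp2e1, log2 fold change -0.67) and 0 at that p. Over all tested genes, 47.7% were under 0, 5.45% were higher and 7.13% were lower at that p. Cyp2e1 lies on chromosome 7. Of the 8 hepatocyte markers, 1 (Apob, log2 fold change 0.35) was higher without overlap of the libraries, and 0 were lower (3.34% and 4.81% of all genes). The part of these cells in the proteasome values was not tested.

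**Figure D4:**
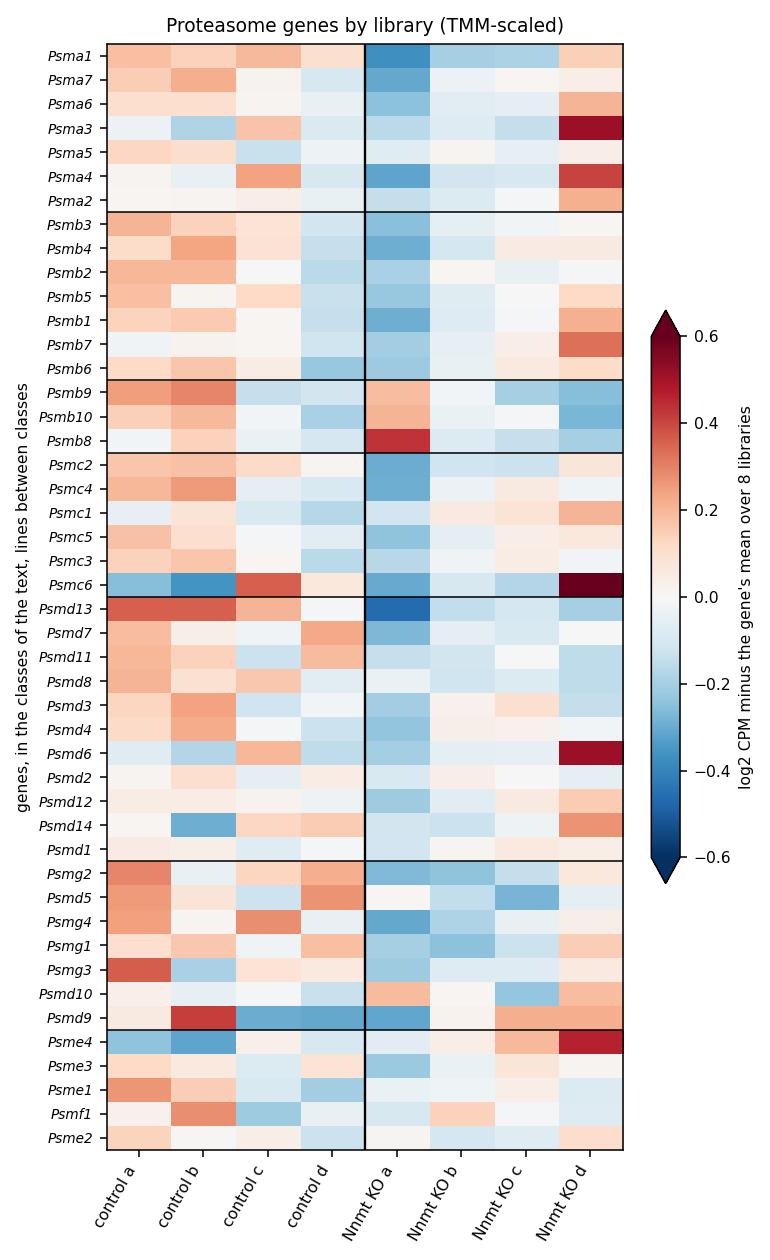
Deviation of each proteasome gene from its own mean over the 8 libraries, in log2 CPM after TMM scaling, by library (columns, control left of the line) and gene (in the order of the plot of fold changes, with lines between classes). Nnmt KO library a is blue for most genes and red for the 3 immunoproteasome genes, library d is blue for those 3 and red for most core subunit genes, and the colours end at 0.6 either way.

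The GC content of the transcripts moved with the values of single libraries. Over the 46 genes, the GC content of the longest coding transcript ran from 37.0% for Psmc6 to 58.3% for Psmd3. Of the 10 genes of lowest GC content, 7 had their highest value of the 8 in Nnmt KO library d, and of the 10 of highest GC content, 0 did. The 10 of highest GC content include all 3 immunoproteasome genes, and also Psmb5 and Psmb6. Within the Nnmt KO group, library d was the lowest for the 3 immunoproteasome genes and the highest for Psmb5 and Psmb6. As a description over 46 genes that share a library, the correlation of GC content with the deviation of a library was -0.69 for Nnmt KO library d, -0.44 and -0.58 for control libraries c and d, 0.62 and 0.52 for control libraries a and b, and 0.24, 0.50 and 0.55 for Nnmt KO libraries a to c. Over 12168 tested genes with a transcript of known GC content, it was weaker in every library. It was -0.40 for Nnmt KO library d, -0.32 and -0.19 for control libraries c and d, and 0.24 and 0.30 for control libraries a and b. For Nnmt KO libraries a to c it was 0.09, 0.19 and 0.19. Both genotypes held libraries of either sign, and the median log2 fold change between genotypes was -0.00 for the 10 genes of lowest and -0.09 for the 10 of highest GC content. The part of GC content in the differences between mice was not tested.

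**Figure D5:**
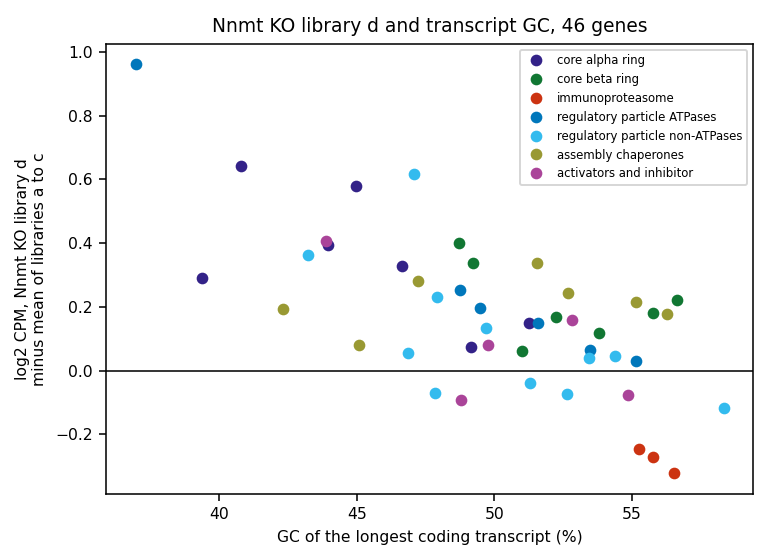
Difference in log2 CPM between Nnmt KO library d and the mean of Nnmt KO libraries a to c for each of the 46 genes, against the GC content of its longest coding transcript, coloured by class. Psmc6, at the lowest GC content, lies highest, and the 3 immunoproteasome genes lie lowest, near the upper end of GC content.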

How the data were processed

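Liver RNA from 4 Nnmt KO and 4 control mice was sequenced by the authors in paired-end reads, with 1 library per mouse. The labels name HISAT2, StringTie and the build mm10, without versions, and the authors deposited whole-number counts per gene, not normalized. Annotation and strand setting are not given in the sources used here, and 13 of the 46 genes share exon bases with another gene, 10 of them only on the opposite strand. The methods name a KAPA kit and the labels a NEBNext kit.

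The 15291 genes that passed filterByExpr (minimum count 10) were scaled by TMM and tested with edgeR 4.0.16 (quasi-likelihood) in R 4.3.3, with Benjamini-Hochberg adjustment over all of them. DESeq2 1.42.0 was the alternative. Standard errors are those implied by the F statistic. Positions and exon lengths are from GENCODE M21 (GRCm38). A level of 3 counts stands for 0.0341 to 0.04 CPM, a floor that covers counting error only. Libraries of a genotype were not copies (chi-square per degree of freedom 39.9 to 248).

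The genes, classes and lists were chosen with earlier results of these data known. Values in every library are given for Nnmt, the 3 catalytic pairs, genes with an unadjusted p under 0.05 or no overlap, and the largest difference of each class. Levels per kilobase are given for the highest and lowest gene of each class, and of the other lists genes with an unadjusted p under 0.05 and Nfe2l1, Nfe2l2, Pomp, Sem1, Adrm1, Tap1 and Ubb are named, and not every gene of this rule is reported here. Genes named beyond this rule were chosen after their values were seen. Proteins of the catalytic pairs were not used here. Alternatives were DESeq2's size factors, library size only, no filter, each library left out, other thresholds, another transcript length and leaving out chromosome 7.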

Additional observations from a re-analysis of the deposited data

Results flagged for a closer look

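Of 36 groups of 4 libraries examined, 3 had a library whose gap to the nearest of the others took more of the group's range than Dixon's 95% limit allows, and chance flags about 1 in 20 groups (5%). In Nnmt KO mice, library a had a TMM factor of 1.21 beside factors of 0.952 to 0.977, and Psmb8 was at 31.7 CPM in library a, against 20.4 to 22.2 CPM. In control mice, the log2 ratio of Psmb9 to Psmb6 was -4.60 in library c, against -4.30 to -4.28 in the others. The values from Nnmt KO library a belong to the same library, and without it the log2 fold change of Psmb8 was -0.14.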

How the results depend on the processing

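The count of genes at an adjusted p of 0.05 was 0 in edgeR under every scaling and filter and with each library left out, and at an adjusted p of 0.1. With DESeq2's Wald test it was 1 (Psmd13, log2 fold change -0.45). By that test 5 genes were lower and 1 was higher at an unadjusted p under 0.05, beside 14.2% of all genes in either direction. DESeq2 also called Nnmt, at -1.28 (adjusted p = 0.00467), where edgeR's adjusted p was 0.123 and edgeR's adjusted p ranged up to 0.296 with a library left out. Scaled by library size only, 1 gene was lower and 1 was higher at the unadjusted p, beside 9.4% of all genes in either direction. With this scaling 3 lower and 1 higher did not overlap, and Psmb6 and Psmb10 turned to 0.0012 and 0.020. The share of all genes without overlap was not computed for this scaling. With each library left out, 1 to 6 genes were lower and 0 to 1 higher at the unadjusted p, beside 8.08% to 14.1% of all genes in either direction. In these fits 1 to 8 lower and 0 to 1 higher did not overlap. Both counts of lower genes were largest without Nnmt KO library d, where 11% of all genes passed the unadjusted p. Groups of 3 and 4 libraries separate more readily than 4 and 4, and the share of all genes without overlap was not computed for them. Without chromosome 7, added after the data were seen, 1 was lower at the unadjusted p, and 0 did not overlap and were lower. Over all genes of every chromosome these shares were 7.13% and 4.81%. No gene (0 lower and 0 higher) also had a log2 fold change above 1. Small values turned sign with 1 library left out, with ranges of -0.13 to 0.0085 for Psmb6, -0.041 to 0.14 for Psmb7, -0.14 to 0.098 for Psmb8 and -0.14 to 0.014 for Psmb10. Psmb6 turned without Nnmt KO library a or control library b, Psmb7 without Nnmt KO library d, Psmb8 without Nnmt KO library a or control library d, and Psmb10 without Nnmt KO library d or control library b. No paired analysis was possible because the columns carry no mouse number. With 4 mice per genotype, the p-values set a difference between genotypes against the spread between mice. The fits estimate that spread in part from other genes. Small differences, as those of Psmb5, Psmb6 and Psmb7, lay within the spread of these mice.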
